A study of Mus musculus with 8 samples.

Results

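NF-κB subunits and their inhibitors were examined in the transcriptome of mouse regulatory T cells (Tregs) on day 2 of differentiation. The 10 genes were chosen by their symbols in the count table, 5 for the subunits (Nfkb1, Nfkb2, Rel, Rela and Relb) and 5 for inhibitors of the IκB family (Nfkbia, Nfkbib, Nfkbid, Nfkbie and Nfkbiz). The rule that names them uses symbols and no measured value, though it was set with earlier results of these data known, and these are 10 of the 28239 symbols in the table. Naive CD4+ T cells from the spleens of C57BL/6 mice were differentiated for 2 days with IL-2, TGF-β and beads carrying antibodies to CD3 and CD28, and RNA was taken from 4 cultures labelled Alox15-/- and 4 labelled WT. The mice were female and male and 10 to 12 weeks old. According to the study's methods, the naive cells were purified by negative selection, and no sorting of the cultures for Foxp3 is described. The methods also name different suppliers for the wild-type strain and the Alox15-deficient mice, so supplier and genotype cannot be told apart. Alox15 encodes a lipoxygenase that makes lipid mediators, and the comparison asks how its loss changes the transcriptional programme of Tregs.

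The libraries labelled Alox15-/- went against their label in 1 respect that is stated first. The level of Alox15 was 5.31 ± 3.61 CPM (SD, n = 4) where the label was WT and 67.2 ± 3.18 CPM where it was Alox15-/-, a log2 fold change of 3.65 (SE 0.299, adjusted p = 1.08e-05, edgeR's quasi-likelihood test). Groups are therefore named by their labels throughout. A tag count near the 3′ end does not check a deletion elsewhere in a gene. The cause of the higher level of Alox15 under the label Alox15-/- was not tested. CPM here is a count scaled to the library's total over the tested genes and adjusted by the TMM method. The total count was 3723151 to 9538962 per library, with a median of 5907410.5. The study counts its replicates of the Alox15-/- group as mice, and the labels do not tie a library to an animal, so p-values measure the spread between these libraries.

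NF-κB proteins are dimers of Rel-family subunits that wait in the cytoplasm, bound by inhibitors of the IκB family. Signals from the T cell receptor and CD28, or from receptors of the TNF family, activate the IκB kinase complex, the inhibitor is degraded, and the dimer enters the nucleus and binds κB sites. Several genes of the family are themselves known targets of NF-κB, which closes a feedback loop, and c-Rel, encoded by Rel, is known for its part in the induction of Foxp3 in T cells. Nuclear members of the IκB family, among them the products of Nfkbid and Nfkbiz, act on transcription in the nucleus instead of holding dimers in the cytoplasm.

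Promoters are printed here for the 5 members with a window that holds a match of the κB consensus, the motif that NF-κB dimers bind. RefSeq promoter windows on GRCm38.p6 were found for 7 of the 10 members (Nfkb2, Rel, Rela, Nfkbia, Nfkbib, Nfkbid and Nfkbie), in 11 windows of 250 bases before an annotated start. The κB consensus, searched on both strands with overlapping matches counted, was found in 7 of the 11 windows and in at least 1 window of 5 of the 7 members, and in 7.25% of all 32851 windows of the same length. Each sequence runs 5′ to 3′ on the strand of the gene and ends at the base before the start, and capitals mark the matches of the κB consensus.
Nfkbia, chr12:55492648-55492897, minus strand: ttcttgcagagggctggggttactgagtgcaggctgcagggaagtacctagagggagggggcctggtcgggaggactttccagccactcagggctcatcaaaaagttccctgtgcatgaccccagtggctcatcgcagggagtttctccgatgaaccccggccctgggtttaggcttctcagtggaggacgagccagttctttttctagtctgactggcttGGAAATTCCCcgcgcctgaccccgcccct
Nfkbie, chr17:45555450-45555699, plus strand: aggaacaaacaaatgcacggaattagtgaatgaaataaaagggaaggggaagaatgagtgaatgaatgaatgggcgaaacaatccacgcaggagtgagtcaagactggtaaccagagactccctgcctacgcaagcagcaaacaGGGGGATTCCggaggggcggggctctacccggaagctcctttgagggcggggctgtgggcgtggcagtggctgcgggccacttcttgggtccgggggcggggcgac
Nfkbid, chr7:30422156-30422405, plus strand: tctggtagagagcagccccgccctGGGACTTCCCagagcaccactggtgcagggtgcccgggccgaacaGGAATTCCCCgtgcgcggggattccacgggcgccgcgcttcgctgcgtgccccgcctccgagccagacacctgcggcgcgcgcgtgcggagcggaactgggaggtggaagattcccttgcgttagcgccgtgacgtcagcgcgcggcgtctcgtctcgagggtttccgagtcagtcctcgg
Nfkb2, chr19:46304487-46304736, plus strand: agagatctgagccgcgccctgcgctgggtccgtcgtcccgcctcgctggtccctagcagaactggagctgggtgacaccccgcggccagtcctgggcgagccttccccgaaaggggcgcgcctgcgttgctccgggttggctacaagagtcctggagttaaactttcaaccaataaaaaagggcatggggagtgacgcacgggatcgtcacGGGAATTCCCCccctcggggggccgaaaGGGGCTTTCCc
Rel, chr11:23770970-23771219, minus strand: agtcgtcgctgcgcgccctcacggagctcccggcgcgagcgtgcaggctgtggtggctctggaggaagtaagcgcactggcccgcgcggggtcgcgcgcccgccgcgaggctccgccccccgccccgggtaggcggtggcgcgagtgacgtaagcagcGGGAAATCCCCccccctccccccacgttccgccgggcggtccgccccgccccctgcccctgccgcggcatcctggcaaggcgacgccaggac
The match in the Nfkbia window lay 29 to 20 bases before the start, that of Nfkbie 106 to 97 bases and those of Rel between 92 and 82 bases. Nfkbid held its matches 226 to 217 and 181 to 172 bases before the start of the window shown. Nfkb2 held them 39 to 29 and 11 to 2 bases before the start of the window shown. These are starts inside the gene, 674 bases (Nfkbid) and 417 bases (Nfkb2) past its start in the GENCODE annotation. The windows of Rela and Nfkbib and the other 2 windows of Nfkbid held no match of the consensus, and the other 2 windows of Nfkb2, not printed, held 1 match each. The choice of windows followed the matches and not the levels of the genes. A match says only that these letters occur in the window.

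All 10 members passed the filter on low counts, at least 2 CPM in at least 4 libraries, which kept 12700 genes. Their smallest count in any library was between 64 for Nfkbiz and 1047 for Nfkb1, for which counting error alone gives a coefficient of variation of 12.5% and 3.09%. Compared per kilobase of the longest annotated transcript, Nfkbia had the highest level, with a mean over the 8 libraries of 176 ± 52.2 CPM per kb, followed by Nfkb1 at 83.7 ± 15.8, Nfkbid at 69.5 ± 43.3 and Nfkb2 at 57.4 ± 12.5 CPM per kb. Nfkbib at 41.5 ± 6.23 and Rela at 38.8 ± 3.11 CPM per kb stood next, then Relb at 15.7 ± 1.45, Nfkbie at 14.6 ± 7.69, Rel at 8.06 ± 2.24 and Nfkbiz at 5.97 ± 1.75 CPM per kb. Of the neighbours in this order, the ranges over libraries did not overlap for Rela and Relb, and overlapped for the other 8 pairs. The assay counts tags near the 3′ end, so a level per kilobase divides a tag count by a length that the tags do not cover. Before division by length the order was Nfkb1, Nfkbia, Nfkb2, Nfkbid, Rela, Nfkbib, Rel, Relb, Nfkbie and Nfkbiz.

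No member passed the threshold between the groups in edgeR's quasi-likelihood test with the filter on low counts, and 2 passed it without that filter, as given further on. Of the 10 members, 0 passed an adjusted p of 0.05, against 1.24% of all genes tested (1.05% with higher levels under the label Alox15-/- and 0.197% with lower levels). By DESeq2 and limma-voom 0 members passed as well. An unadjusted p under 0.05 was reached by 0 members and by 7.84% of all genes, and the groups did not overlap for 0 members and for 5.25% of all genes. The log2 fold change was below 0 for 7 members and for 51.8% of all genes. Its median was -0.21 over the members and -0.0075 over all genes tested. The number of members below 0 was the same with the other scalings of library size. It was 8 without the filter on low counts, 9 without Alox15-/- 1 and 5 without WT 4. The adjusted p-values of the members lay between 0.667 and 0.988.

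**Figure D1:**
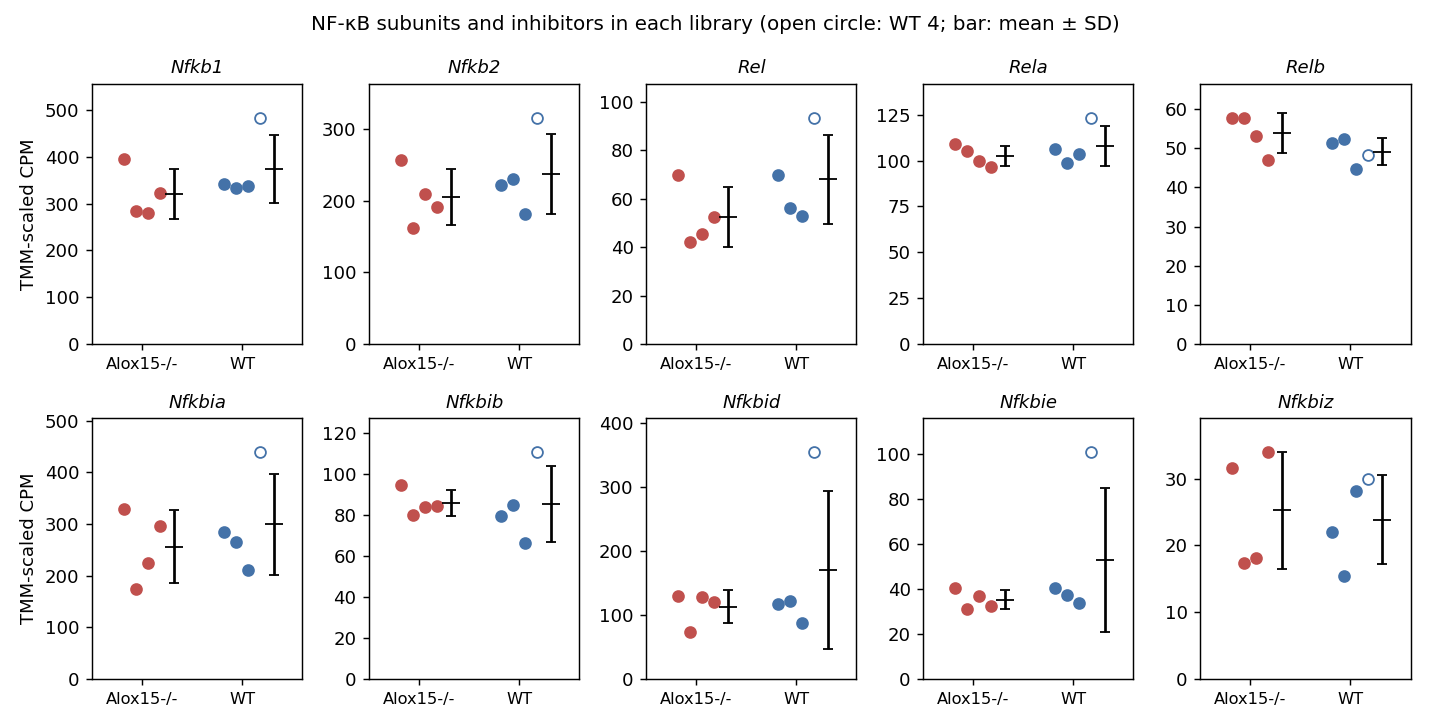
Level of each NF-κB subunit and inhibitor in TMM-scaled CPM (linear axis from 0) in the 4 libraries labelled Alox15-/- and the 4 labelled WT. Points are libraries, the open circle is WT replicate 4, and the bar gives the mean ± SD of the group. The groups overlapped for all 10 members, and WT replicate 4 was the highest library for 8 of them.

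The genes for the subunits were expressed in every library. Nfkb1 (chr3:135584655-135691547, minus strand, GRCm38) encodes the precursor of a DNA-binding subunit that has no activation domain of its own. Its level was 396, 284, 281 and 323 CPM in the libraries labelled Alox15-/- and 341, 332, 338 and 483 CPM in those labelled WT. WT 1, WT 2 and WT 3 lay close together while WT 4, the library labelled WT with replicate number 4, lay far above them, and the groups overlapped. The log2 fold change of Nfkb1 was -0.22 (SE 0.139, 95% interval -0.52 to 0.08, adjusted p = 0.773), and it was -0.07 (adjusted p = 0.921) without WT 4. Nfkb2 (chr19:46304320-46312385, plus strand), which encodes the precursor used by the non-canonical arm, was counted at 256, 162, 210 and 191 CPM in the libraries labelled Alox15-/- and at 221, 230, 182 and 315 CPM in those labelled WT. WT 4 was again the highest library and Alox15-/- 2 the lowest, and the log2 fold change was -0.21 (SE 0.160, adjusted p = 0.820) with WT 4 and -0.04 (adjusted p = 0.967) without it. Nfkb2 overlaps Psd on the opposite strand, and the strand used in counting is not given in the sources used here.

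Rel (chr11:23736847-23770970, minus strand), which encodes c-Rel, had 69.8, 42.1, 45.4 and 52.4 CPM in the libraries labelled Alox15-/- and 69.6, 56.1, 52.7 and 93.4 CPM in those labelled WT. The highest library labelled Alox15-/- lay above 3 of the 4 libraries labelled WT. The log2 fold change of -0.37 (SE 0.184, 95% interval -0.76 to 0.03, adjusted p = 0.683) was the furthest from 0 among the subunits, and it was -0.18 (adjusted p = 0.820) without WT 4 and -0.53 (adjusted p = 0.421) without Alox15-/- 1. Rel lies on the same chromosome as Alox15, 46.6 Mb away. Rela (chr19:5637483-5648130, plus strand), which encodes the activating subunit of the canonical dimer, had the smallest ratio of its highest to its lowest library among the members, 1.28, just under the 1.29 of Relb. It lay between 96.4 and 109 CPM under the label Alox15-/- and between 98.8 and 123 CPM under the label WT, and its log2 fold change was -0.07 (SE 0.102, 95% interval -0.29 to 0.14). Relb (chr7:19606217-19629438, minus strand), which encodes the activating subunit of the non-canonical arm, had 57.7, 57.8, 53.1 and 47.0 CPM in the libraries labelled Alox15-/- and 51.3, 52.4, 44.7 and 48.3 CPM in those labelled WT. Here WT 4 was not the highest library, and the log2 fold change was 0.13 (SE 0.110, adjusted p = 0.837).

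Among the classical inhibitors, Nfkbia (chr12:55489410-55492647, minus strand) encodes IκBα, the inhibitor that is degraded and made anew in each round of signalling. Its level was 330, 173, 224 and 296 CPM in the libraries labelled Alox15-/- and 285, 264, 211 and 438 CPM in those labelled WT. Values spread widely in both groups, with Alox15-/- 2 lowest and WT 4 highest, and the log2 fold change was -0.23 (SE 0.210, 95% interval -0.67 to 0.22, adjusted p = 0.851), and it was 0.02 (adjusted p = 0.991) without WT 4. Nfkbib (chr7:28758251-28767512, minus strand) encodes IκBβ and was the member with the log2 fold change nearest 0, at 0.02 (SE 0.137, 95% interval -0.27 to 0.31). It lay between 80.1 and 94.6 CPM under the label Alox15-/- and between 66.1 and 110 CPM under the label WT, and it overlaps Sirt2 and Ccer2 on the opposite strand. Nfkbie (chr17:45555703-45563169, plus strand), which encodes IκBε, had 40.3, 30.9, 36.7 and 32.5 CPM in the libraries labelled Alox15-/- and 40.3, 37.2, 33.5 and 100.5 CPM in those labelled WT. Apart from WT 4, the libraries of both groups lay between 30.9 and 40.3 CPM. The log2 fold change of Nfkbie was -0.57 (SE 0.279, 95% interval -1.16 to 0.03, adjusted p = 0.667), and it was -0.07 (SE 0.136, adjusted p = 0.932) without WT 4.

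Of the nuclear inhibitors, Nfkbid (chr7:30421732-30428746, plus strand) encodes IκBNS, a nuclear IκB protein known to take part in the induction of Foxp3. It had 130, 74.1, 127 and 121 CPM in the libraries labelled Alox15-/- and 118, 123, 87.1 and 354 CPM in those labelled WT. A low library stood in the former group and a far higher one in the latter, while the other 6 libraries lay between 87.1 and 130 CPM. The log2 fold change of Nfkbid was -0.58 (SE 0.335, 95% interval -1.29 to 0.14, adjusted p = 0.738), and it was 0.06 (SE 0.167, adjusted p = 0.949) without WT 4. Nfkbiz (chr16:55811375-55838899, minus strand), which encodes IκBζ, had 31.6, 17.4, 18.2 and 34.0 CPM in the libraries labelled Alox15-/- and 22.0, 15.4, 28.1 and 30.0 CPM in those labelled WT. It had the lowest level per kilobase of the members and the largest coefficient of variation in the libraries labelled Alox15-/-, 34.6%, and its highest library was Alox15-/- 4.

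**Figure D2:**
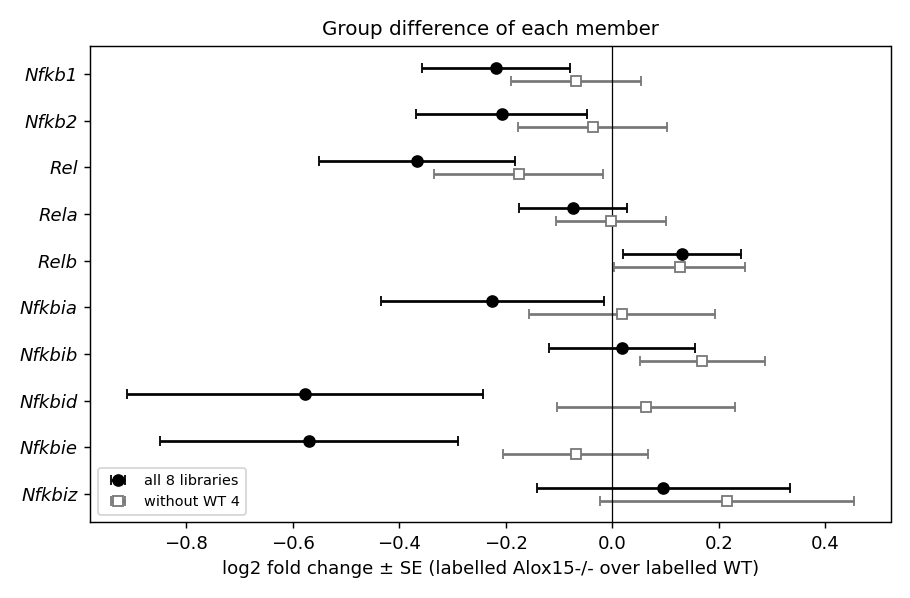
Log2 fold change of each member (libraries labelled Alox15-/- over those labelled WT, edgeR, bars ± SE) with all 8 libraries (filled circles) and without WT 4 (open squares). Nfkbid moved from -0.58 to 0.06 and Nfkbie from -0.57 to -0.07 when WT 4 was left out, while Relb stayed at 0.13.

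A single library, WT 4, had the highest level for most members. WT 4 was the highest of the 8 libraries for 8 of the 10 members, the exceptions being Relb and Nfkbiz, whereas it was the highest for 17.9% of all genes tested. Its level over the mean of the other 3 libraries labelled WT was 3.25-fold for Nfkbid, 2.72-fold for Nfkbie, 1.73-fold for Nfkbia, 1.57-fold for Rel, 1.496-fold for Nfkb2, 1.44-fold for Nfkbib, 1.43-fold for Nfkb1, 1.38-fold for Nfkbiz, 1.20-fold for Rela and 0.976-fold for Relb. The median of these ratios was 1.47 over the members and 0.995 over all genes tested. The median coefficient of variation of the members in the libraries labelled WT was 25.5% with WT 4 and 12.3% without it, beside 14.7% and 12.6% over all genes.

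Other libraries deviated to a smaller extent. The median over members of the deviation from the mean log2 level was 0.52 in WT 4 and 0.19 in Alox15-/- 1, and it was -0.40 in Alox15-/- 2 and -0.23 in WT 3. Alox15-/- 2 was the lowest library for 5 members (Nfkb2, Rel, Nfkbia, Nfkbid and Nfkbie), and it also had the smallest total count. Over all genes the same medians lay between -0.00065 and 0.017. Without WT 4 the log2 fold change was below 0 for 5 members and above 0 for 5, with a median of 0.0082, and the adjusted p-values of the members were 0.754 or more.

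**Figure D3:**
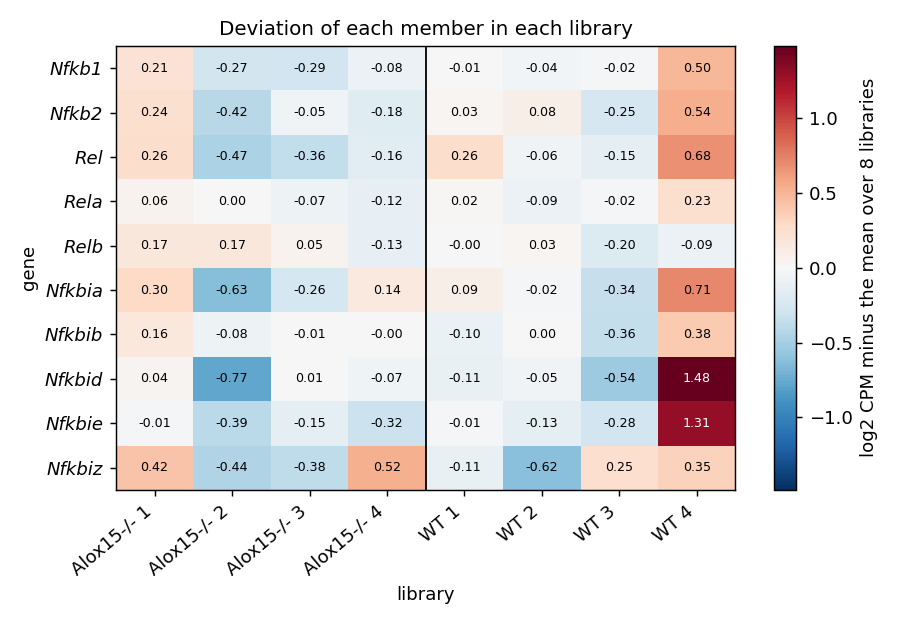
Deviation of each member (rows) from its own mean log2 CPM over the 8 libraries, by library (columns), with red above and blue below the mean. The column of WT 4 is red except for Relb, with a median of 0.52, and that of Alox15-/- 2 is mostly blue, with a median of -0.40.

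The sums by role gave a similar picture. The summed level of the 5 subunit genes was 836 ± 155 CPM (SD, n = 4) under the label WT, with 1064 CPM in WT 4, and 734 ± 105 CPM under the label Alox15-/-. The classical inhibitors Nfkbia, Nfkbib and Nfkbie summed to 438 ± 147 CPM and 376 ± 78.9 CPM in the same order, and to 649 CPM in WT 4. The nuclear inhibitors Nfkbid and Nfkbiz summed to 194 ± 127 CPM and 138 ± 31.9 CPM, and to 384 CPM in WT 4. In WT 1, WT 2 and WT 3 the subunits summed to 720 to 789 CPM. The classical inhibitors there summed to 310 to 405 CPM and the nuclear inhibitors to 115 to 140 CPM. These sums lay inside the ranges under the label Alox15-/-, which were 651 to 888, 284 to 465 and 91.5 to 161 CPM. The ratio of classical inhibitor counts to subunit counts was 0.510 ± 0.0601 in the libraries labelled Alox15-/- and 0.514 ± 0.0739 in those labelled WT, and it ranged from 0.431 in WT 3 to 0.610 in WT 4. These sums depend most on their abundant members and were not tested.

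Most pairs of members were positively correlated across the libraries, and the share over pairs of all genes was not computed. Correlations of log2 CPM over the 8 libraries, WT 4 among them, are given as a description, without p-values. All genes of a library share its depth and scaling. Pearson's r was above 0 for 38 of the 45 pairs. Its median was 0.71, and it was 0.47 without WT 4. The median was 0.45 without the 2 libraries farthest from the median of the first member of each pair. The pair with the highest r was Nfkbid and Nfkbie, at 0.95 with a Spearman's rho of 0.79, and r was 0.51 without the 2 libraries farthest from the median of Nfkbid. For Nfkb1 and Rel r was 0.95 and rho 0.95, and r was 0.87 without the 2 farthest libraries and 0.89 without WT 4. For Nfkb2 and Nfkbie the corresponding values were 0.87, 0.95, 0.88 and 0.92. Relb had an r below 0 with 7 of the other 9 members, the lowest being -0.46 with Nfkbiz. Without WT 4 it had an r above 0 with 6 of the 9, among them 0.69 with Nfkbib and 0.49 with Rela.

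**Figure D4:**
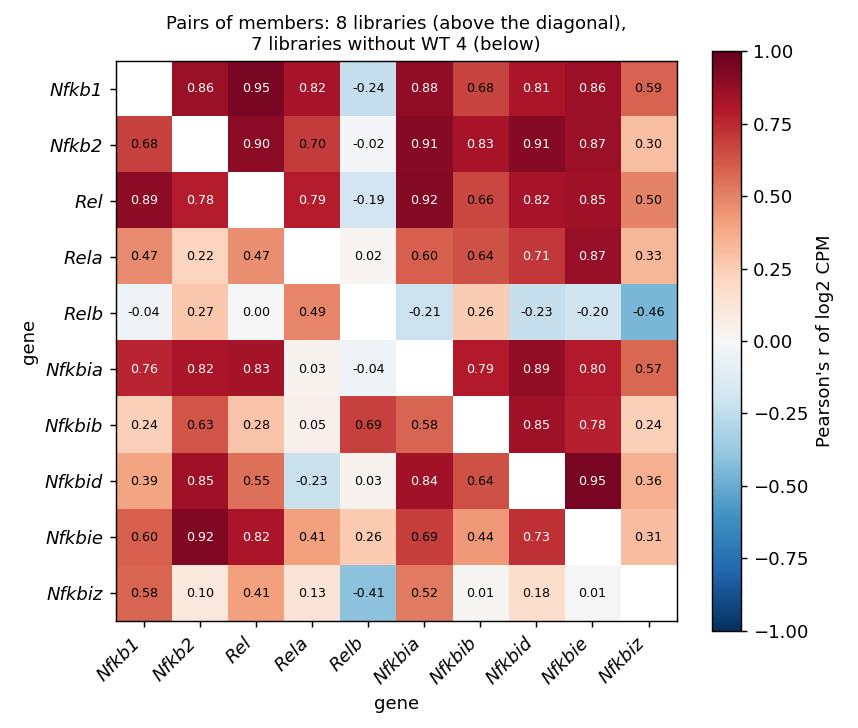
Pearson's r of log2 CPM between members, over 8 libraries above the diagonal and over the 7 libraries without WT 4 below it. Most pairs are red above the diagonal, with a median of 0.71, and paler below it, with a median of 0.47. Relb is pale or blue with most members above the diagonal, and below it reaches 0.69 with Nfkbib.

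For the 3 members of highest mean CPM before division by length (Nfkb1, Nfkbia and Nfkb2), the tested gene with the most similar pattern was found by the same r of log2 CPM over the 8 libraries. For Nfkb1 it was Arhgef3 (r = 0.99, and 0.98 without WT 4), for Nfkbia it was Mbp (r = 0.98, and 0.97 without WT 4), and for Nfkb2 it was Tagap (r = 0.97, and 0.97 without WT 4). The most similar member was Rel for Nfkb1, at rank 6 of all tested genes, Rel for Nfkbia, at rank 52, and Nfkbid for Nfkb2, at rank 45. These genes were selected as the maximum over all genes tested, so the size of r is a description.

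The other genes of the pathway were described with lists by role, 64 genes in all, of which 61 were tested, Ltbr and Csf2 fell below the filter and Bcl2a1b was not listed. Of the 61, 26 had a log2 fold change above 0 and 35 below 0, with a median log2 fold change of -0.03, and 0 passed an adjusted p of 0.05 by edgeR. An unadjusted p under 0.05 was reached by 6 genes (9.84%), 1 of them higher and 5 lower, beside 7.84% of all genes. Cd83, an activation marker and NF-κB target, had the smallest adjusted p and was 1 of 61 pathway genes whose groups did not overlap, beside 5.25% of all genes. Its level was 45.4, 24.2, 34.2 and 41.7 CPM in the libraries labelled Alox15-/- and 58.3, 49.7, 50.7 and 78.3 CPM in those labelled WT, a log2 fold change of -0.69 (SE 0.182, adjusted p = 0.118, edgeR). The call of Cd83 depended on the setting. Its adjusted p was 0.0248 by DESeq2 and 3.68e-05 in edgeR without the filter on low counts. Without WT 4 its log2 fold change was -0.53 (adjusted p = 0.233, edgeR), and without both WT 4 and the filter it was -0.55 (adjusted p = 0.0102, edgeR).

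The signalling lists held differences in both directions, none of which passed the threshold in edgeR's test with the filter on low counts. Of 10 genes for IκB kinases and kinases upstream of them 4 were higher and 6 lower, and Tab3, a partner of the kinase TAK1, had the lowest log2 fold change, -0.46 (SE 0.193, unadjusted p = 0.0319, adjusted p = 0.569). Tab1, another partner of that kinase, was at 0.35 (SE 0.173, adjusted p = 0.667). Of the 4 genes that link the antigen receptor to the IκB kinases, 1 was higher and 3 lower, with Bcl10 highest at 0.08. Of 10 genes for TRAF adaptors, cIAP proteins and linear ubiquitin 4 were higher and 6 lower, from Birc2 at -0.20 to Traf5 at 0.14. Of 8 genes for degradation of IκB and for feedback, 4 were higher and 4 lower, from Tnfaip3 at -0.42 to Tnip2 at 0.25. Of 7 tested genes for receptors of the TNF family 2 were higher and 5 lower, from Tnfrsf4 at -0.19 to Tnfrsf1a at 0.14. The atypical IκB gene Bcl3 was at 0.16 (SE 0.224, adjusted p = 0.911).

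Among 20 tested target genes of NF-κB in T cells, 9 were higher and 11 lower, with 0 past the threshold in either direction. The lymphotoxin gene Lta was at a log2 fold change of -0.24 (SE 0.105, unadjusted p = 0.0384), the survival gene Bcl2l1 at -0.46 (SE 0.207, unadjusted p = 0.0422), the transcription factor gene Irf4 at -0.38 (SE 0.161, unadjusted p = 0.0303) and Irf1, another transcription factor gene, at 0.35 (SE 0.164, unadjusted p = 0.0485). Their adjusted p-values lay between 0.560 and 0.635. Without WT 4 the values were -0.16 for Lta, -0.23 for Bcl2l1, -0.22 for Irf4 and 0.22 for Irf1, with unadjusted p-values from 0.134 to 0.209 in edgeR's test. The extremes of the list were the chemokine gene Ccl4 at -0.73 (SE 0.554, adjusted p = 0.819) and the early response gene Ier3 at 0.59 (SE 0.348, adjusted p = 0.738). Ccl4 was at -0.09 by limma-voom and at 0.43 (adjusted p = 0.768, edgeR) without WT 4. Without WT 4 Ier3 was at 1.03 (adjusted p = 0.149, edgeR), and without both WT 4 and the filter it passed the threshold (adjusted p = 0.0214, edgeR).

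The pattern of WT 4 was also seen in these target genes, of which 12 of 20 had their highest level in WT 4, beside 17.9% of all genes. The median ratio of WT 4 to the mean of the other libraries labelled WT was 1.53 for the target genes and between 0.702 and 1.19 for the other lists. The cytokine gene Il2, chosen after its values were seen, had 73.1, 33.7, 76.8 and 67.0 CPM in the libraries labelled Alox15-/- and 43.1, 39.6, 31.9 and 288 CPM in those labelled WT. For Il2 the log2 fold change was -0.65 (adjusted p = 0.838, edgeR) and did not pass the threshold. Without the filter on low counts it was -0.67 (adjusted p = 1.67e-05, edgeR) with all libraries and 0.71 (adjusted p = 5.54e-05, edgeR) without WT 4, so its direction turned with that library. Ccl4 had 49.7, 21.7, 35.4 and 21.1 CPM in the libraries labelled Alox15-/- and 31.7, 29.8, 10.99 and 144 CPM in those labelled WT. Outside the target genes, Tnfaip3, which encodes the feedback inhibitor A20, had 104 CPM in WT 4 and at most 58.7 CPM elsewhere. Tnfrsf4, which encodes OX40, had 1017 CPM in WT 4 and at most 610 CPM elsewhere. The lists that hold Tnfaip3 and Tnfrsf4 had median ratios of 1.07 and 1.19. The target gene Irf1 and the atypical IκB gene Bcl3 went the other way. They had 49.9 and 19.7 CPM in WT 4, the lowest of the 8 libraries for both. Without WT 4, 1 pathway gene passed the threshold: the chemokine gene Ccl3, chosen after its values were seen, at a log2 fold change of 1.30 (SE 0.299, adjusted p = 0.0380, edgeR), against 0.24 (adjusted p = 0.946) with all libraries.

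**Figure D5:**
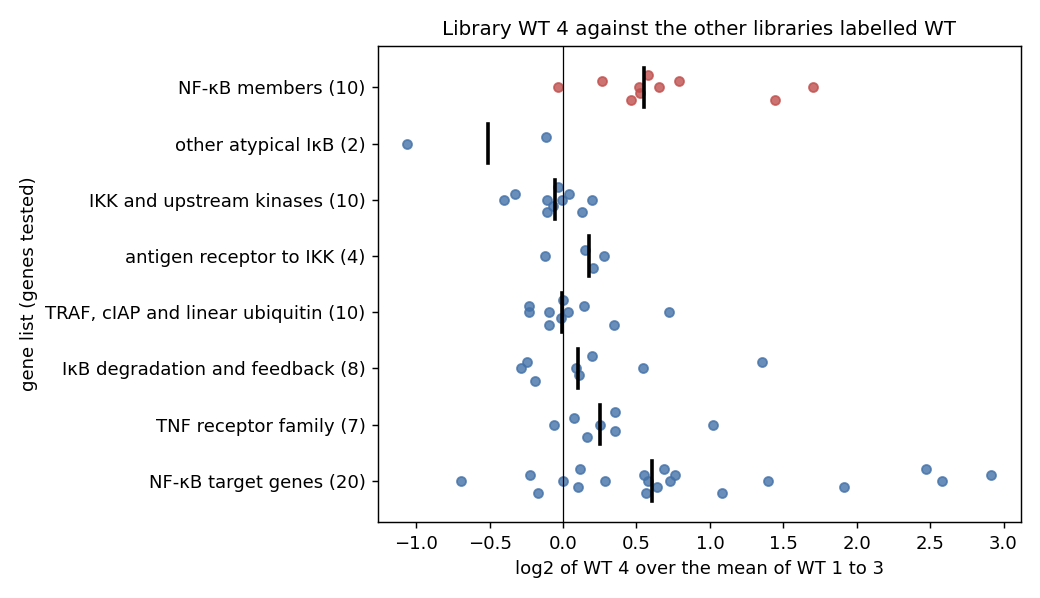
Log2 ratio of the level in WT 4 to the mean of the other 3 libraries labelled WT, for the members (red) and the genes of 7 pathway lists (blue), with the number of tested genes in brackets and the median as a black line. The members and the target genes lie mostly above 0, with median ratios of 1.47 and 1.53, while the kinase list has a median of 0.965.

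Without the filter on low counts, 2 members passed the threshold in edgeR's test, both lower in the libraries labelled Alox15-/-: Nfkbid at a log2 fold change of -0.60 (adjusted p = 6.79e-05) and Nfkbie at -0.59 (adjusted p = 0.00256), while 1.37% of the 28239 genes passed. Both calls were lost when WT 4 was left out of that test as well, where Nfkbid was at 0.04 (adjusted p = 0.936) and Nfkbie at -0.09 (adjusted p = 0.882). The calls of these 2 members therefore rested on WT 4.

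Markers of other cells moved with the groups, and their part in the values of the members was not tested. In bulk cultures, fewer cells of a type and less RNA per cell cannot be told apart. The summed level of 7 CD4 T cell and Treg markers was 2426 to 2545 CPM in the libraries labelled Alox15-/- and 2591 to 2668 CPM in those labelled WT, with Foxp3 itself between 71.7 and 114 CPM and between 93.4 and 195 CPM. The sums of 5 erythroid markers (905 to 3484 against 32.5 to 122 CPM), 7 myeloid markers (39.7 to 160 against 11.9 to 14.4 CPM), 5 mast cell and basophil markers (124 to 298 against 56.6 to 79.5 CPM) and 5 NK and γδ T cell markers (69.3 to 121 against 19.9 to 36.6 CPM) were higher in the libraries labelled Alox15-/-. The sum of 5 B cell markers was lower (5.55 to 7.56 against 8.31 to 19.3 CPM), and that of 2 CD8 markers was 12.1 to 21.9 against 21.5 to 31.8 CPM. The exact two-sided permutation test gave p = 0.0286, the smallest that 4 against 4 allows (adjusted 0.0333 over 7 lists), for 6 lists, and p = 0.0857 for the CD8 list. The CD4 T and Treg list lost its call without scaling factors (p = 0.0571, exact permutation test). Defining markers below the filter included Cd79a and Pax5 of B cells, Csf1r, Itgam and Spi1 of myeloid cells and Klrb1c and Ncr1 of NK cells, and no marker was at 0 in every library. WT 4 lay within the range of the other libraries labelled WT for 5 of the 7 sums and was the highest of them for the erythroid and the mast cell and basophil sums.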

How the data were processed

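RNA of Tregs was profiled on day 2 by MACE-seq according to the study's methods, whereas the labels give a small RNA kit of that firm. The deposited table holds raw counts for each gene symbol in each library, and these were not normalized. The submitters' processing notes name Bowtie, edgeR and GRCm38, and the counting tool, the strand setting and the removal of duplicates are not given in the sources used here. Columns were assigned to 4 libraries labelled Alox15-/- and 4 labelled WT by their names.

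A gene was kept where 4 or more libraries had 2 CPM or more, which left 12700 of 28239, and library sizes were scaled by TMM. The groups were compared with the quasi-likelihood test of edgeR 4.0.16 (R 4.3.3), group as the only term, with Benjamini–Hochberg adjustment over all genes tested and a threshold of 0.05. Standard errors were derived from the fitted log2 fold change and its F statistic. The common dispersion was 0.021, a biological coefficient of variation of 14.5%. The steps were tested on simulated data. Marker sums, as log2 of CPM plus 1, were compared by a two-sided exact permutation test. Positions and transcript lengths came from the GENCODE annotation of GRCm38, and promoter windows from RefSeq on GRCm38.p6. The motif search used the κB consensus by name. The coefficients of variation given for counting error leave out the spread between libraries, whereas the intervals of log2 fold changes include it.

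The genes named are all members, Alox15, the pathway genes past the adjusted threshold or with an unadjusted p under 0.05, the largest rise and fall of each list, and for the 3 most abundant members the most similar gene. Il2, Ccl3, Foxp3 and genes that overlap a member were added after their values were seen, as were the examples named for WT 4. Some genes of the lists are not reported here by name. The members and lists were chosen with earlier results of these data known. Alternatives were the size factors of DESeq2, upper quartile scaling, no scaling factors, no filter, edgeR's own filter, DESeq2 1.42.0, limma-voom (limma 3.58.1), robust fitting, the replicate number as a block, and each library left out. Tables were handled with pandas 2.3.3 and scipy 1.17.1, and figures drawn with matplotlib 3.10.9.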

Additional observations from a re-analysis of the deposited data

Results flagged for a closer look

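Of 56 groups of 4 libraries examined, 8 held a library whose gap to its neighbour exceeded Dixon's critical share of the group's range for 4 samples, and chance flags about 1 in 20 groups. Over all 12700 genes tested the same was seen in 5.95% of the groups labelled WT and 4.77% of those labelled Alox15-/-, against 3 and 1 of the 10 members. The library was WT 4 in 6 of the 8 cases, and 4 of the 8 were members. Over all genes tested, WT 4 was the library in 297 of the 756 flagged groups labelled WT, and WT 3 in 286. In the libraries labelled WT the value in WT 4 was 483 CPM for Nfkb1 (next 341), 354 CPM for Nfkbid (next 123), 100.5 CPM for Nfkbie (next 40.3), 104 CPM for Tnfaip3 (next 43.1) and 144 CPM for Ccl4 (next 31.7), all above the other libraries of the group, and 49.9 CPM for Irf1 (next 79.3), below them. In the libraries labelled Alox15-/- it was 74.1 CPM for Nfkbid in Alox15-/- 2 (next 121) and 15.9 CPM for Tnfrsf1a in Alox15-/- 3 (next 18.1), both below the others. The 8 cases are not independent, since the genes share their libraries, and Tnfaip3, Ccl4 and Irf1 were named for group differences that WT 4 enters.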

How the results depend on the processing

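The number of members past the threshold was 0 with the other scalings, with edgeR's own filter, with DESeq2, limma-voom or robust fitting, with the replicate block and without any library in turn, and 2 without the filter on low counts. The cause of that change was not tested. Pathway genes past the threshold numbered 5 without the filter (Il2, Irf4, Cd83, Bcl2l1 and Ccl4), 1 with DESeq2 (Cd83), 1 with the replicate block (Cd83, adjusted p = 0.0196, edgeR) and 0 to 1 with a library left out (Ccl3 without WT 4). All genes past it numbered 158, against 388 without the filter and 86 to 172 with a library left out. Same-numbered libraries deviated with correlations of 0.07, 0.17, -0.18 and -0.02, so the numbers were not taken to pair the libraries.

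The median log2 fold change of the members ranged from -0.33 to 0.0082 over the libraries left out. Among the members and the other genes named by rule, the sign turned with a library left out for Nfkbia (-0.37 to 0.0184), Nfkbib (-0.0837 to 0.17), Nfkbid (-0.79 to 0.0633), Nfkbiz (-0.0940 to 0.24), Bcl3 (-0.0226 to 0.35), Bcl10 (-0.0086 to 0.17), Tnfaip3 (-0.62 to 0.0390), Tnfrsf4 (-0.35 to 0.14) and Ccl4 (-1.08 to 0.43), and none of these values passed the threshold. Without the filter Nfkbib was at -0.0036, and without both the filter and WT 4, an alternative chosen after seeing the data, Nfkbid was at 0.0427 and Il2, which was lower without the filter alone, was higher at 0.71 (adjusted p = 5.54e-05, edgeR).

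With a library left out, 3 against 4 cannot reach p = 0.05 in the exact permutation test (smallest p 0.0571), so the marker sums lost their call by construction. Their log2 differences ranged from -0.0979 to -0.0750 for CD4 T and Treg markers (-0.0964 without scaling factors, p = 0.0571, exact permutation test), -0.90 to -0.53 for B cell, 2.07 to 2.74 for myeloid, 1.27 to 1.69 for mast cell and basophil, 4.44 to 5.12 for erythroid and 1.56 to 1.92 for NK and γδ T cell markers. In the order of levels, 8 of 10 members kept their rank in each group on its own and 1 kept it per kilobase. With 4 libraries a group, the printed intervals bound the size of the differences, and a p above the threshold does not show that a member did not differ.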
